A study of Sus scrofa with 5 samples.

Results

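The nuclei described here carried the receptor gene IL31RA at 3 or more unique molecular identifiers (UMIs, the counted transcript molecules), and IL31RA and OSMR together at 8 or more per 10000 UMIs of the nucleus. They numbered 185 of the 2189 nuclei of the deposited table, 8.45% (exact Clopper-Pearson 95% interval 7.32 to 9.70%), and are called IL31RA/OSMR nuclei. The table came from 5 male Landrace pigs, with 80 mg of ganglion tissue per sample from thoracic and lumbar levels, and nuclear RNA was read. Dorsal root ganglia house the cell bodies of the neurons that sense touch, temperature, itch and pain. The pigs formed 1 group, with no strain, treatment or age contrast in the labels. IGEPAL CA-630 or Triton X-100 served to free the nuclei, which were cleaned on a density gradient, or enriched for NeuN, a protein of neuronal nuclei, by magnetic beads or sorting.

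IL31RA and OSMR are the paired chains of the receptor for interleukin-31, a T cell cytokine known for causing itch. OSMR also pairs with IL6ST, the shared signalling chain of the interleukin-6 family, to form a receptor for oncostatin M. Both receptors signal through Janus kinases such as JAK1 to STAT transcription factors. In mouse ganglia, IL31RA and OSMR are found in C-fibre neurons that make natriuretic peptide B (NPPB) and somatostatin (SST), peptides that act on itch circuits of the spinal cord.

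Barcode endings separated 6 libraries, and neither the labels nor the table assign a library to a pig or to an isolation protocol. All nuclei were therefore 1 pooled sample: there was no replication to test across, and the 95% intervals reflect counting error alone, with nothing in them of variation from pig to pig. The comparison group was the other 1487 nuclei of at least 2000 UMIs. Levels are given as counts per 1000000 UMIs of a group (CPM). IL31RA/OSMR nuclei held 2414724 UMIs, with a median of 8191 per nucleus (934 to 338372), and the other nuclei had a median of 5930. Their share was 9.53% of library 1 (65 of 682 nuclei), 8.07% of library 3 (65 of 805), 9.37% of library 5 (31 of 331) and 7.77% of library 6 (22 of 283), and the exact intervals of these shares overlapped. Libraries 2 and 4 gave 1 nucleus each, and libraries shared 0 barcodes. The libraries also differed in the mitochondrial share of UMIs, whose median in IL31RA/OSMR nuclei was 3.73, 33.0, 0.114 and 0.0826% in libraries 1, 3, 5 and 6, against 4.56, 21.7, 0.111 and 0.0564% in the other nuclei. Pig, protocol and library cannot be told apart here, and levels of the leading genes are therefore given by library.

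Among the IL31RA/OSMR nuclei, 3 exceeded 50000 UMIs. The deepest, in library 6, held 338372 UMIs, 14.0% of the group's total, and carried 194 of the group's 219 UMIs of the cold channel gene TRPM8. The only one in library 2 held 269590 UMIs, 11.2% of the total, and carried 122 of the group's 184 SST UMIs. No doublet caller was run, and whether these nuclei held RNA of more than 1 cell was not tested. Several values are also given without them.

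The selecting genes are described first, and the rule itself sets their levels. IL31RA lay on chromosome 16 at 34987399 to 35071367 and OSMR on the same chromosome at 24041312 to 24101842, in RefSeq's annotation of the build Sscrofa11.1. A nucleus of the group carried 3 to 854 IL31RA UMIs, with a median of 10, and 0 to 271 OSMR UMIs, with a median of 3. OSMR had no UMI in 27 of the 185 nuclei, so those entered on IL31RA alone. The level of IL31RA was 1128, 1739, 1178 and 1114 CPM in libraries 1, 3, 5 and 6, and OSMR stood at 555, 323, 443 and 375 CPM in the same order. After thinning each nucleus to 2000 UMIs, which left out 7 shallower nuclei of the group, IL31RA had a UMI in 89.9% of them, in 9.75% of the other nuclei and in 4.44% of nuclei high in large-fibre markers, a type that should lack it (median depths before thinning 8191, 5930 and 5716.5 UMIs). The rule fixes this difference in IL31RA, which is not a finding.

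**Figure D1:**
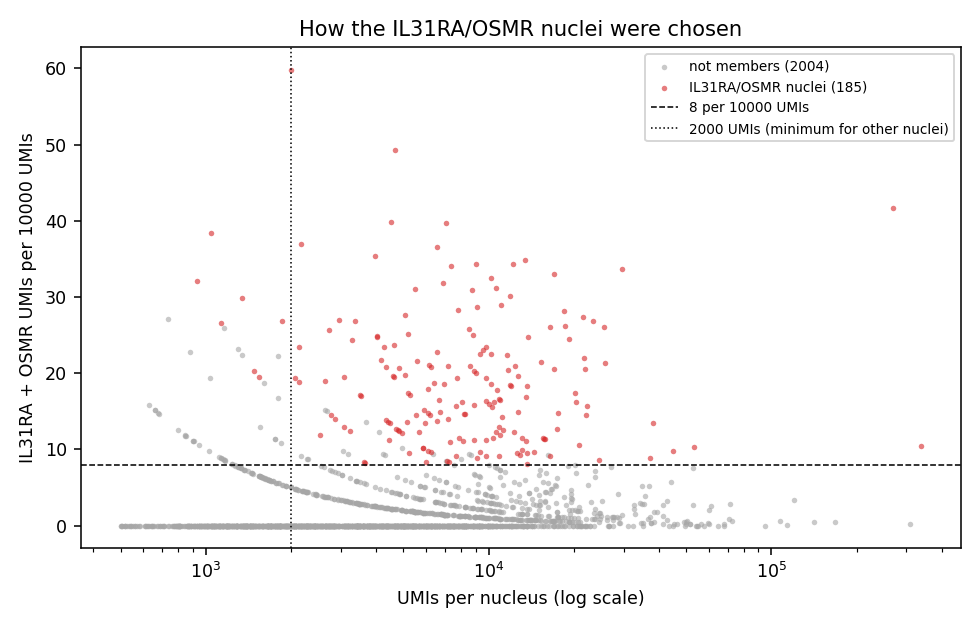
Each point is 1 nucleus: the horizontal axis gives its UMIs on a log scale and the vertical axis its IL31RA and OSMR UMIs per 10000 UMIs, with the 185 selected nuclei in red and the limit of 8 as a dashed line. Grey points above the line had fewer than 3 IL31RA UMIs.

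The limit on the combined level cut through a continuous range. The 23 nuclei just inside it (8 to 10 per 10000 UMIs) had JAK1 at 1171 CPM and TRPC6 at 102 CPM, and the 22 nuclei just outside it (6 to 8 per 10000) had JAK1 at 989 CPM and TRPC6 at 59.7 CPM. Another 41 nuclei met the combined limit with only 1 or 2 IL31RA UMIs. Their median depth was 1342 UMIs, and they carried NMB at 593 CPM. The 49 nuclei with 3 or more OSMR UMIs but no IL31RA UMI had JAK1 at 412 CPM, NMB at 52.9 CPM and TRPC6 at 3.45 CPM, against 371, 89.4 and 6.41 CPM in the other nuclei. Their CYSLTR2 (38.0 against 10.4 CPM) and SST (24.2 against 10.2 CPM) lay above the other nuclei.

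The label given to these nuclei, itch or silent nociceptors, was checked against its markers. All 7 markers outside the rule were higher than in the other nuclei: TRPC6, CYSLTR2, NMB, SST, NPPB, JAK1 and ETV1 summed to 3979 CPM against 714 CPM. These markers were picked with results of these data known, so their direction is not independent evidence. After thinning, the median nucleus of the group had a UMI of 3 of the 7 markers and the median other nucleus of 1. At least 4 markers were seen in 68 of 178 nuclei of the group (38.2%) and in 27 of 1487 other nuclei (1.82%). The word silent had less to rest on. CHRNA3, a nicotinic receptor gene that marks silent nociceptors in mouse, had 2 UMIs in the group (0.828 CPM) and 119 in the other nuclei (8.39 CPM), a 10.1-fold lower level with a counting interval of 2.74 to 84.6. Without library 1 it was 15.6-fold lower, and without the deepest nuclei 16.01-fold, each on 1 UMI in the group. Responses to itch or touch were not measured, so the nuclei are named by their rule.

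Markers of other cells mostly summed to less than in the other nuclei. Satellite glia markers summed to 817 against 1474 CPM, fibroblast markers to 162 against 217 CPM, endothelial markers to 91.5 against 104 CPM and macrophage markers to 41.4 against 65.6 CPM. Non-myelin Schwann cell markers stood at 2125 against 2489 CPM, mast cell markers at 18.6 against 114 CPM, T and natural killer cell markers at 46.8 against 81.1 CPM, and those of pericytes, B cells and red cells at 28.6, 25.7 and 41.0 against 29.7, 31.4 and 45.3 CPM. Without nuclei above 50000 UMIs the pericyte list turned to slightly higher, at 33.6 against 30.8 CPM, and the endothelial list was level, at 106.6 against 107.0 CPM. Some sums were above those of the other nuclei in single libraries: endothelial in libraries 1 and 5, fibroblast in library 5 and pericyte in libraries 1 and 3. Myelin Schwann cell markers were slightly higher, at 516 against 455 CPM, and NCMAP was the member of that list that was at least 2-fold higher. CD3G, NKG7 and GZMA of T and natural killer cells, CD79B of B cells and ABCC9 of pericytes had 0 UMIs in the group, which allows up to 1.24 CPM each. Of the markers of other sensory neurons, the large-fibre list summed to 883 against 2044 CPM and the GFRA2 and LPAR3 list to 371 against 709 CPM. In the first list 7 of 11 markers were called lower and 0 higher. In the second, 4 of 10 were called lower and 1 higher. The TRPM8 list stood at 468 against 425 CPM, with PENK at 0 UMIs, but at 416 against 432 CPM without nuclei above 50000 UMIs, and it was lower in the group in libraries 3 and 5. The peptidergic list stood at 3312 against 1511 CPM, but TAC1 alone gave 3200 and 1202 CPM of these sums. Of its 5 markers 1 was called higher and 3 lower.

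**Figure D2:**
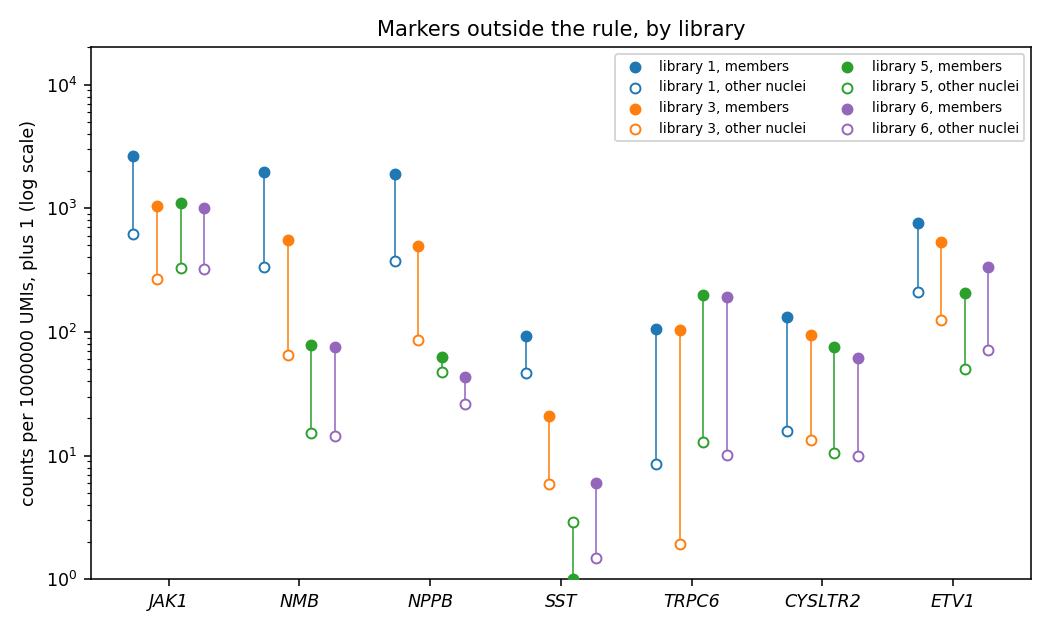
Levels of the 7 markers outside the rule, in CPM plus 1 on a log scale, in the 4 libraries with at least 10 nuclei on each side (filled points, IL31RA/OSMR nuclei, and open points, other nuclei of the same library). Filled points lie above open ones throughout except for SST in library 5, which had no UMI in the group.

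Over all genes, 13206 had at least 50 UMIs on both sides together. A gene was called when its level differed at least 2-fold with an interval that excluded a ratio of 1. By that rule 346 genes were higher in IL31RA/OSMR nuclei (2.62% of those compared, both selecting genes among them) and 1314 were lower (9.95%). The direction was the same in every library that gave a value for 315 of the higher and 1013 of the lower genes. Across all genes the log2 ratio had a median of -0.13, and centring on it changed the split to 492 higher and 1035 lower.

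**Figure D3:**
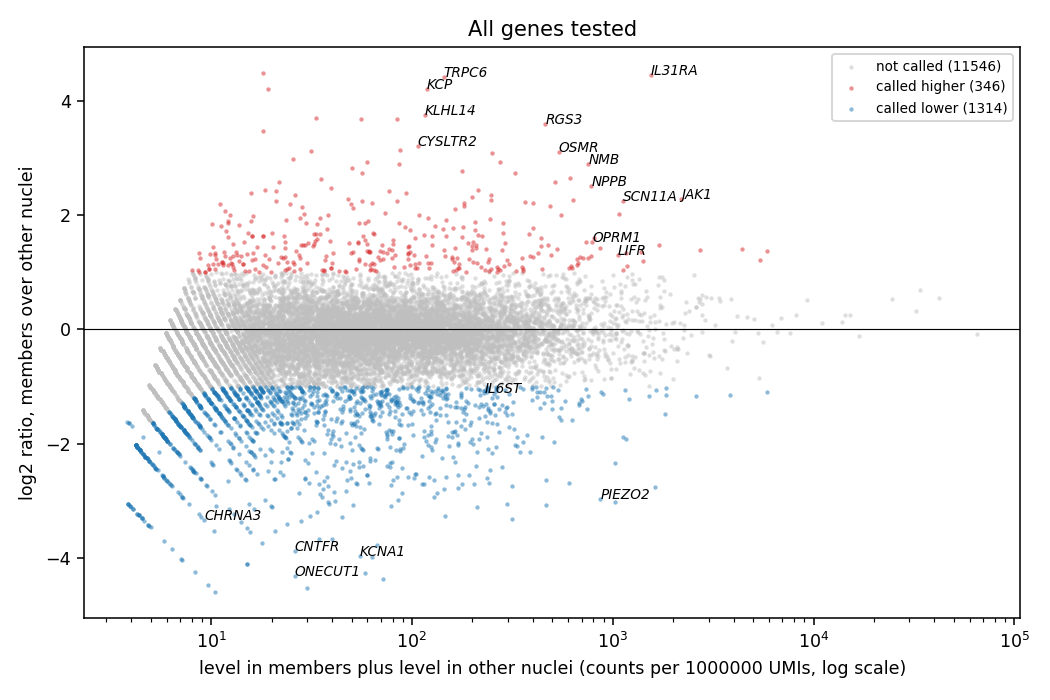
Each point is 1 of the 13206 genes: the horizontal axis gives its level in IL31RA/OSMR nuclei plus that in the other nuclei (CPM, log scale), the vertical axis its log2 ratio. The 346 genes called higher (red) reach above a log2 ratio of 4, where TRPC6 and KCP stand, and the 1314 called lower (blue) include PIEZO2, KCNA1 and ONECUT1.

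Genes of interleukin-31 and oncostatin M signalling were largely near the level of the other nuclei, apart from a few with large differences. Of 27 such genes compared besides the receptor pair, 2 were higher and 3 lower. JAK1, the kinase that both receptors use, stood at 2664, 1042, 1101 and 1005 CPM in libraries 1, 3, 5 and 6, against 617, 268, 330 and 324 CPM in the other nuclei of those libraries. In each of these libraries the group was higher, and over all libraries JAK1 was at 1810 against 371 CPM, 4.88-fold (4.68 to 5.08). The library-2 nucleus carried 1309 of its 4371 UMIs, and without the 3 deepest nuclei the ratio was 4.28. LIFR, the leukaemia inhibitory factor receptor chain, was higher as well, at 757 against 305 CPM (2.48-fold, 2.35 to 2.62), and lay between 639 and 790 CPM in the group in libraries 1, 3, 5 and 6.

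IL6ST, which completes the oncostatin M receptor, was lower than in the other nuclei: 72.5 against 157 CPM, 2.16-fold lower (1.85 to 2.54). Its level in the group was 92.3, 59.8, 113 and 50.8 CPM in libraries 1, 3, 5 and 6, each below the other nuclei of that library (191, 174, 138 and 120 CPM). IL6ST lies on chromosome 16 at 35101304 to 35151832, near IL31RA, and after thinning had a UMI in 12.9% of the group against 24.3% of the other nuclei. JAK3 was 2.72-fold lower at 5 UMIs (1.12 to 8.62), and CISH, a feedback inhibitor of cytokine signalling, was 3.63-fold lower at 3 UMIs (1.19 to 18.1). The other kinases and the STAT genes differed less: JAK2 stood at 351 against 428 CPM, STAT3 at 217 against 170 CPM (1.27-fold) and STAT5B at 98.6 against 83.0 CPM (1.19-fold), none past 2-fold. SOCS3, a feedback inhibitor induced by STAT3, had 0 UMIs in the group and 3 in the other nuclei, too few to compare.

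Among 23 further cytokine receptor genes, IL17RD was the only one called higher, and 5 were lower (21.7%, beside 9.95% of all genes). IL17RD, a relative of the interleukin-17 receptors that also restrains growth factor signalling, was at 223, 151, 223 and 250.0 CPM in libraries 1, 3, 5 and 6, and 8.49-fold above the other nuclei overall (7.43 to 9.71). In the other nuclei of those libraries it lay between 13.8 and 32.6 CPM, with no overlap. CNTFR, the ciliary neurotrophic factor receptor chain that works with LIFR and IL6ST, had 4 UMIs in the group against 347, 14.8-fold lower (5.72 to 54.5), and 3 of the 4 came from 1 nucleus. Without library 6 it was 35.3-fold lower, and without the deepest nuclei 38.5-fold. IL4R, a receptor chain of another itch cytokine, stood at 17.4 against 23.4 CPM, and its interval included a ratio of 1.

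Peptide genes had calls in both directions: of 11 compared, 5 were higher and 3 lower, against 2.62% and 9.95% of all genes. NPPB was at 1876, 496, 61.5 and 42.1 CPM in libraries 1, 3, 5 and 6. NMB, which encodes neuromedin B, a bombesin-like peptide, was at 1962, 548, 77.7 and 74.3 CPM in the same order. Both were highest in library 1 and lowest in library 6, a range of 44.6-fold for NPPB and 26.4-fold for NMB within the group. The other nuclei moved the same way, from 375 to 25.1 CPM for NPPB and from 336 to 13.5 CPM for NMB, so a pooled level of either gene depends on which libraries supplied the nuclei. The group was above the other nuclei of its library in all 4 cases, with NPPB closest in library 5 (61.5 against 46.5 CPM), and over all libraries at 5.70-fold for NPPB (5.32 to 6.11) and 7.46-fold for NMB (6.93 to 8.03).

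TAC1, the substance P precursor, followed the same library pattern: 6173, 4404, 537 and 457 CPM in libraries 1, 3, 5 and 6. Over all libraries it was at 3200 against 1202 CPM. The granule protein gene SCG2 was 3.42-fold higher (3.12 to 3.74). SST was 7.46-fold higher (5.97 to 9.33), at 76.2 against 10.2 CPM, but this ratio rested on few nuclei: without those above 50000 UMIs it was 2.95-fold, at 34.8 CPM, and without library 2 it was 2.81-fold, whereas without library 1 it was 31.9-fold. SST had a UMI in 37 of the 185 nuclei. CARTPT, ADCYAP1 and GAL, peptides of other sensory neurons, were lower, ADCYAP1 3.09-fold (2.50 to 3.87) and GAL 2.70-fold (2.05 to 3.63). The median log2 ratio of the peptide list was 0.39 when libraries were pooled and -0.10 as a mean within libraries, a change of sign.

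The peptides were not carried by every nucleus. NPPB and NMB were both seen in 125 nuclei, NPPB alone in 19, NMB alone in 18 and neither in 23, and the last set was the shallowest, with a median of 4724 UMIs. All but 3 of the nuclei with an SST UMI also had NPPB. These counts come from unthinned nuclei, and a missing UMI is not an absent transcript.

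Receptors for itch and lipid mediators likewise had calls in both directions, with 5 of 28 higher (17.9%) and 6 lower (21.4%). The shares over all genes were 2.62% and 9.95%. CYSLTR2, a cysteinyl leukotriene receptor, was at 131, 93.6, 74.5 and 60.7 CPM in libraries 1, 3, 5 and 6, against 8.84 to 14.8 CPM in the other nuclei of those libraries, and the sides did not overlap. Its ratio was 9.31 (7.54 to 11.5). The histamine receptor genes HRH1 (223 against 61.3 CPM, 3.63-fold, 3.26 to 4.05) and HRH2 (30.7 against 7.61 CPM, 4.03-fold, 2.95 to 5.46) were both higher. HRH4, another histamine receptor, stood at 22.8 against 27.5 CPM and was not called. PTGER2, a prostaglandin E2 receptor, was 3.48-fold higher (2.87 to 4.21) and GPR35 3.17-fold (2.28 to 4.37), while PTGER3, another prostaglandin E2 receptor, was 4.30-fold lower (2.91 to 6.63) and the prostacyclin receptor PTGIR 4.49-fold lower (2.47 to 9.09). LPAR3, a lysophosphatidic acid receptor, was 6.44-fold lower (3.99 to 11.12).

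Among receptors for peptides, opioids and inhibitory transmitters, 5 of 29 were higher (17.2%) and 6 lower (20.7%), beside 2.62% and 9.95% of all genes. The neuropeptide Y receptor genes NPY2R (8.69-fold, 5.89 to 12.9) and NPY1R (4.01-fold, 3.35 to 4.79) were higher, NPY2R at only 68 UMIs. NPY5R was higher at 23 UMIs (3.65-fold, 2.07 to 6.31), and its direction turned after thinning. OPRM1, the mu opioid receptor, was higher in each library: 913 against 307 CPM in library 1 and 193 against 101 in library 3. In library 5 it was at 321 against 225 CPM and in library 6 at 368 against 249 CPM. Over all libraries it was 2.89-fold higher (2.71 to 3.08). Across the alternative settings its log2 ratio ran from 0.90 to 1.92, the lower end short of 2-fold. Without the deepest nuclei, 802 of its 1415 UMIs in the group remained. The delta receptor OPRD1 went the other way, at 12 UMIs against 444, 6.30-fold lower (3.57 to 12.3), and without library 6 it was 13.6-fold lower. GRM8, a glutamate receptor that inhibits release, was 4.45-fold lower (3.62 to 5.53), or 6.98-fold without library 6.

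Among the genes of all lists, IL31RA aside, TRPC6 had the largest ratio. TRPC6, a cation channel gated by diacylglycerol, was at 104, 104, 198 and 192 CPM in libraries 1, 3, 5 and 6. The other nuclei of those libraries had between 0.923 and 11.98 CPM, so the sides lay far apart in each, and the pooled ratio was 21.4 (17.0 to 27.3). TRPC4, TRPC7, TRPM4, TMC3 and the ATP-gated channel gene P2RX5 were the other transduction channels called higher, between 2.12-fold and 2.56-fold, out of 39 compared. Across the alternative settings the log2 ratio of TMC3 ran from 0.098 to 1.54 and that of TRPC7 from 0.93 to 2.47, the lower ends short of 2-fold. Another 6 of the 39 were lower, so both directions held 15.4%, beside 2.62% higher and 9.95% lower over all genes. PIEZO2, the touch channel, was at 97.7 against 769 CPM, 7.86-fold lower (6.91 to 8.98), and below the other nuclei of the same library in each. ANO1, a calcium-activated chloride channel, was 5.56-fold lower (3.49 to 9.45), and P2RX3 had 9 UMIs against 152, 2.87-fold lower or 5.29-fold without library 6.

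TRPV1, the capsaicin channel, and TRPA1, the irritant channel, were not called. TRPV1 stood at 35.2 against 24.5 CPM (1.44-fold, 1.12 to 1.82) and TRPA1 at 64.6 against 98.0 CPM. TRPM8 read 90.7 against 133 CPM, but in libraries 1, 3 and 5 the group had 1.92, 5.98 and 9.71 CPM of it, and only library 6, with the deepest nucleus, reached 259 CPM. Without the deepest nuclei TRPM8 was 11.5-fold lower in the group.

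SCN11A, which encodes the persistent sodium channel Nav1.9 of nociceptors, was the sodium channel gene called higher, out of 13 compared. It stood at 1051, 651, 871 and 817 CPM in libraries 1, 3, 5 and 6, against 186, 151, 283 and 231 CPM, and the ratio was 4.76 (4.51 to 5.04). SCN10A, the nociceptor channel Nav1.8, reached 1.73-fold (1.65 to 1.82) and SCN9A, Nav1.7, 1.83-fold (1.75 to 1.91), both short of 2-fold. SCN1A was lower, 3.49-fold (2.81 to 4.40). In all, 1 of the 13 was higher (7.69%) and 5 lower (38.5%), beside 2.62% and 9.95% of all genes.

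Of 62 potassium channel genes compared, 5 were higher (8.06%) and 23 lower (37.1%). Both shares lay above the 2.62% and 9.95% of all genes. KCNG3 (3.13-fold) and KCNH8 (2.66-fold) were among the higher ones. KCNA1, a fast axonal channel of large neurons, had 8 UMIs against 734 and was 15.6-fold lower. Without library 1 it was 7.89-fold lower, and without library 6 105-fold, the latter on 1 UMI in the group. Across all alternative settings its log2 ratio ran from -6.71 to -1.31. Of 25 calcium channel genes CACNA2D3, an auxiliary subunit, was the only one higher (4.0%), at 994 against 391 CPM (2.55-fold, 2.43 to 2.67). Another 7 were lower (28.0%).

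**Figure D4:**
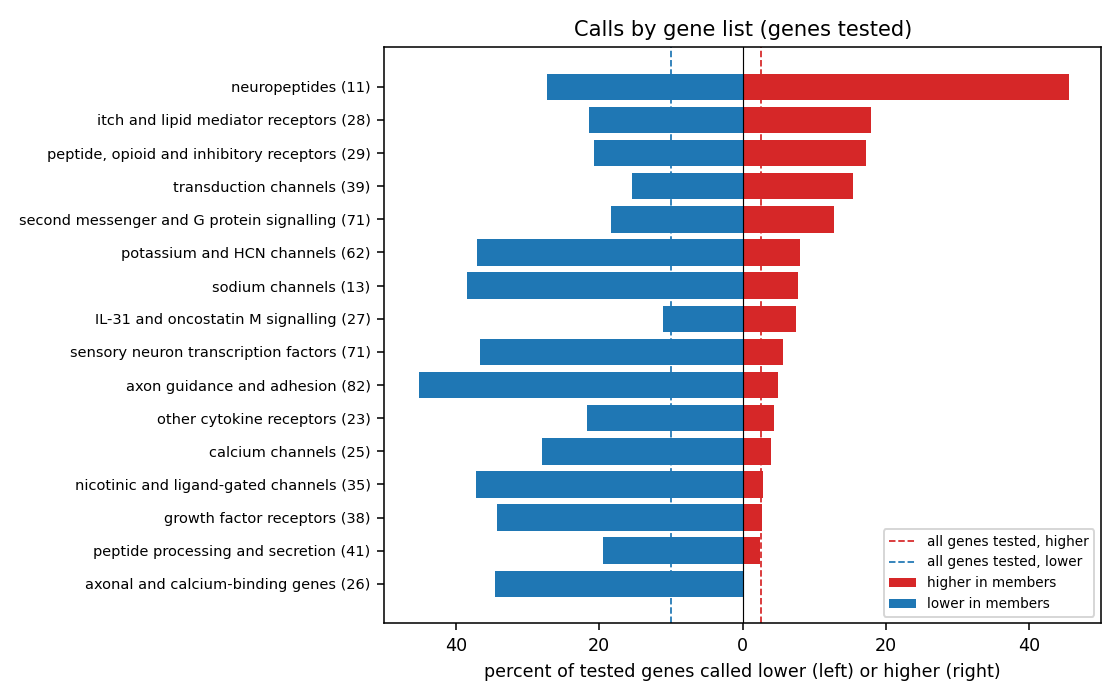
For each gene list, with the number of genes compared in brackets, bars give the percentage of those genes called lower (left, blue) and higher (right, red) in IL31RA/OSMR nuclei, and dashed lines the 9.95% and 2.62% over all genes. Peptide genes have the longest bar to the right and adhesion genes the longest to the left.

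Beside the median log2 ratio of -0.13 over all genes, the lists named so far had medians of -0.03 (interleukin-31 and oncostatin M signalling), -0.42 (other cytokine receptors), -0.42 (itch and lipid mediator receptors), -0.24 (peptide, opioid and inhibitory receptors), -0.15 (transduction channels), -0.55 (sodium channels), -0.63 (potassium channels) and -0.26 (calcium channels). As means within libraries these medians were 0.07, -0.31, -0.27, -0.17, -0.18, -0.15, -0.51 and -0.22 in the same order, beside -0.004 over all genes. Nicotinic and other ligand-gated channels had 1 of 35 higher (2.86%), the GABA-A subunit gene GABRA5 (2.71-fold, 2.24 to 3.26). Another 13 were lower (37.1%), and the list median was -0.70. The shares over all genes were 2.62% and 9.95%. GABRA2, another GABA-A subunit, was 4.18-fold lower, or 6.28-fold without library 6. Of 41 genes of peptide processing and release 1 was higher (2.44%) and 8 lower (19.5%), with a median of -0.12. The higher one, PCSK2, encodes a protease that cuts peptide precursors, and it was at 940, 719, 1007 and 803 CPM in libraries 1, 3, 5 and 6 against 176, 192, 253 and 211.5 CPM in the other nuclei. Its ratio was 4.07 (3.85 to 4.31), and the 2 sides did not overlap. Axonal and calcium-binding genes had none of 26 higher and 9 lower (34.6%), with a median of -0.77, or -0.48 as a mean within libraries. Among these 9, PVALB was 5.97-fold lower but turned to higher when only the 3 C-fibre sets described below were the comparison.

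Growth factor receptors were mostly lower or level: of 38 compared, 1 was higher (BMPR1B, 2.28-fold) and 13 lower. These shares were 2.63% and 34.2%, beside 2.62% and 9.95% of all genes, and the median log2 ratio was -0.57. RET, the signalling receptor for glial-derived neurotrophic factors, was at 825 against 423 CPM, 1.95-fold (1.85 to 2.05) and just short of a call. KIT (6.21-fold) and GFRA2 (3.80-fold, 2.97 to 4.94, or 9.75-fold without library 6) were lower.

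Transcription factors of sensory neurons included 4 higher (5.63%) and 26 lower (36.6%) out of 71, beside 2.62% and 9.95% of all genes. Their median log2 ratio was -0.71. ETV1, an ETS factor, was at 753, 532, 207 and 333 CPM in libraries 1, 3, 5 and 6, above the 48.9 to 208 CPM of the other nuclei of those libraries in each pair, and 4.81-fold overall (4.46 to 5.18). KLF5, a zinc finger factor, was 4.63-fold higher (4.02 to 5.32) and the LIM factor ISL2 2.62-fold (2.35 to 2.91). ONECUT1 had 3 UMIs against 352, 19.97-fold lower (6.78 to 97.3), and 41.0-fold without library 6, on 1 UMI in the group. Across all alternative settings its log2 ratio ran from -5.36 to -1.08. RUNX1, which directs C-fibre neurons, stood at 241 against 231.5 CPM and did not differ beyond its interval.

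Signalling genes downstream of receptors had 9 of 71 higher (12.7%) and 13 lower (18.3%), beside 2.62% and 9.95% of all genes. Their median log2 ratio was -0.18. RGS3, a brake on G protein signalling, was at 450, 339, 337 and 290 CPM in libraries 1, 3, 5 and 6, against 60.0, 34.5, 34.0 and 19.2 CPM, and 12.2-fold higher overall (10.9 to 13.6). PLCB3, the phospholipase that couples Gq receptors to diacylglycerol, was 4.48-fold higher (3.89 to 5.15), and RGS4 3.48-fold (3.03 to 3.99). Of the 9, GNAS alone did not keep its direction across libraries: it was 2.83-fold higher in the pool and 1.17-fold without the deepest nuclei. It was chosen after its values were seen.

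Adhesion and guidance genes were the list with the most lower calls, 37 of 82 (45.1%, beside 9.95% of all genes). Another 4 were higher (4.88%, beside 2.62%), and the median log2 ratio was -0.84 against -0.13 for all genes. NRXN3, a presynaptic neurexin, was 8.16-fold lower (7.23 to 9.23) and the cadherin gene CDH4 7.30-fold lower (5.32 to 10.3). LRRTM3, a synaptic partner of neurexins, was higher instead, 7.64-fold (6.75 to 8.66), at 242 against 31.7 CPM. UNC5C, a netrin receptor, was 2.63-fold higher (2.31 to 2.99).

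Genes with the largest ratios over all genes, beyond those already named, belonged to no single list. KCP, a secreted regulator of bone morphogenetic protein signalling, was at 51.9, 61.8, 269 and 155 CPM in libraries 1, 3, 5 and 6, against 3.04, 3.38, 13.4 and 7.12 CPM in the other nuclei. Its level was higher in libraries 5 and 6 on both sides, and its pooled ratio was 18.6 (14.5 to 24.0). KLHL14, of the Kelch-like family, was 13.5-fold higher (10.8 to 17.0), the ephrin receptor gene EPHA8 13.0-fold (8.53 to 20.1), the extracellular protein gene COCH 12.9-fold (9.35 to 17.9) and the calcium sensor gene HPCAL4 12.8-fold (9.90 to 16.8). SEMA3G, a secreted semaphorin, was 7.60-fold higher. In the other direction, SORCS3, a sorting receptor, had 9 UMIs against 842 and was 15.9-fold lower (8.35 to 34.9).

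The group was also set against 4 other sets of nuclei, each of 2000 or more UMIs and chosen by the summed UMIs of its own markers (at least 3, and at least 4 per 10000, or 8 for the large-fibre set): TRPM8-high nuclei (109), GFRA2/LPAR3-high nuclei (133), ADCYAP1/GAL-high nuclei (179) and nuclei high in the large-fibre markers NTRK2, NTRK3 and PVALB (270). Their library make-up differed: 93 of the 179 ADCYAP1/GAL-high nuclei came from library 3 and 7 from library 5, whereas 57 of the 133 GFRA2/LPAR3-high nuclei came from library 5. Against TRPM8-high nuclei 649 of 8532 genes were higher in the IL31RA/OSMR nuclei (7.61%) and 690 lower (8.09%). Against GFRA2/LPAR3-high nuclei the counts were 524 (5.73%) and 615 (6.72%) of 9151, and against ADCYAP1/GAL-high nuclei 611 (7.08%) and 438 (5.08%) of 8630. Against the large-fibre set 679 were higher (6.65%) and 1492 lower (14.6%) of 10216.

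TRPC6 was higher in the group than in each of these sets. Its level was 137 CPM in IL31RA/OSMR nuclei, 5.40 CPM in TRPM8-high, 2.10 CPM in GFRA2/LPAR3-high, 1.45 CPM in ADCYAP1/GAL-high and 2.93 CPM in large-fibre-marker-high nuclei, and the lowest ratio, against TRPM8-high nuclei, was 25.5 (11.6 to 69.9), or 58.6 without library 6. NMB was 32.6-fold above its level in GFRA2/LPAR3-high nuclei (23.7 to 46.0) and 23.8-fold above the large-fibre set (19.2 to 29.9) over all libraries, and 4.33-fold above ADCYAP1/GAL-high nuclei (3.75 to 5.03). The NMB ratios depended on the libraries pooled: without library 1 they were 66.7 against GFRA2/LPAR3-high nuclei and 42.7 against the large-fibre set. Within libraries 1, 3, 5 and 6 the log2 ratio of NMB to GFRA2/LPAR3-high nuclei was 3.58, 5.79, 3.55 and 3.71, below the pooled ratio in 3 of the 4. JAK1 was 3.36-fold above GFRA2/LPAR3-high nuclei (3.14 to 3.60), with log2 ratios of 1.27 to 1.45 within libraries, and 6.25-fold above ADCYAP1/GAL-high nuclei (5.64 to 6.94). For these set comparisons JAK1, RGS3, KCP, TAC1, NPPB and OPRM1 were chosen after their values were seen. RGS3 was 9.54-fold to 23.9-fold above the 4 sets, and the highest of these, against GFRA2/LPAR3-high nuclei, was 15.8-fold without the deepest nuclei. KCP had 0 UMIs in ADCYAP1/GAL-high nuclei against 272 in the group, a ratio of 51.7 on a floor of 3 counts and of at least 41.8 by its counting interval.

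ADCYAP1/GAL-high nuclei also carried TAC1 and NPPB. TAC1 was lower in IL31RA/OSMR nuclei than there, at 3200 against 6376 CPM (1.99-fold lower, 1.93 to 2.06), and the direction was the same in the 3 libraries that gave a value. NPPB was only 1.63-fold above that set (1.48 to 1.80). TMC3 differed more (41.4-fold, 20.8 to 96.2), and so did HRH2, whose 74 UMIs against 1 gave a 42.2-fold ratio with a wide interval (7.35 to 1689.5). Without library 6 the set had no HRH2 UMI. OPRM1 was close to its level in TRPM8-high nuclei, at 586 against 427 CPM (1.37-fold, 1.23 to 1.53) and 1.07-fold without the deepest nuclei. Within libraries, the group was above TRPM8-high nuclei in library 1 and below them in libraries 3, 5 and 6. OPRM1 was 14.5-fold above GFRA2/LPAR3-high nuclei (11.5 to 18.5), or 9.43-fold without the deepest nuclei. Above ADCYAP1/GAL-high nuclei it was 1.69-fold (1.52 to 1.87), or 1.29-fold without the deepest nuclei. Those nuclei also held the selecting gene IL31RA at 119 CPM, against 14.4, 19.4 and 15.6 CPM in the TRPM8-high, GFRA2/LPAR3-high and large-fibre sets. The IL31RA levels of these sets were chosen after they were seen. PIEZO2 was 23.4-fold lower than in GFRA2/LPAR3-high nuclei (20.5 to 26.8), and SCN11A 23.8-fold higher than in the large-fibre set (19.8 to 28.9). Against the C-fibre sets the SCN11A ratio was smaller: 2.45 for GFRA2/LPAR3-high (2.25 to 2.67), 4.76 for ADCYAP1/GAL-high (4.19 to 5.42) and 6.03 for TRPM8-high nuclei (5.16 to 7.08). These 3 SCN11A comparisons were chosen after their values were seen.

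**Figure D5:**
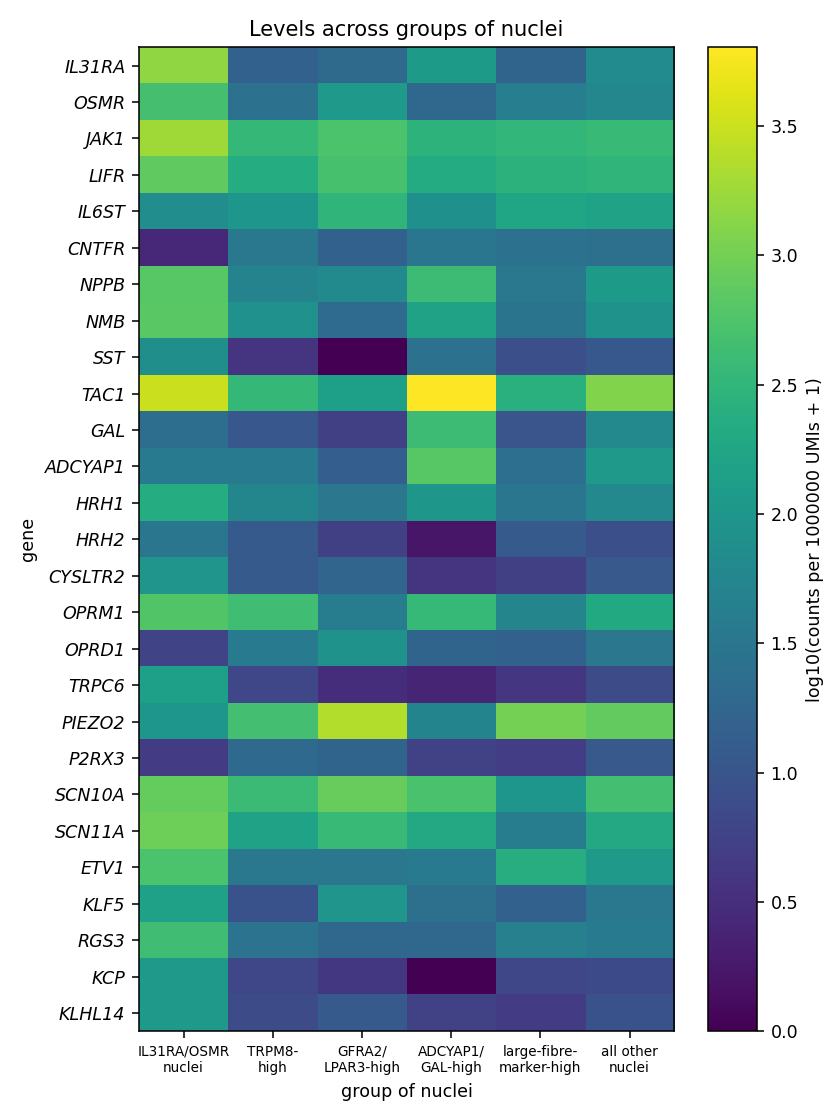
Colour gives the level of 27 genes as log10 of CPM plus 1 in the IL31RA/OSMR nuclei, the 4 marker-chosen sets and all other nuclei. TRPC6 at 137 CPM in the first column stands against 5.40 CPM or less in the 4 sets, and the TAC1 row is brightest in ADCYAP1/GAL-high nuclei at 6376 CPM.

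Within the group, most genes were steadier across libraries than the peptides. Of 311 list genes with at least 100 UMIs in the group, the median ratio of the highest to the lowest of the 4 library levels was 2.23. It was under 2 for 129 of them, and at least 4, or with a library at 0, for 62. LIFR, HRH1 and SCN11A were among the steady genes, while NPPB, NMB, TAC1 and TRPM8 were among the most variable.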

How the data were processed

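Single-nucleus RNA sequencing covered dorsal root ganglion nuclei of 5 pigs. The authors deposited 1 table of raw UMI counts, 30477 genes by 2189 nuclei, with no normalization. The submitters' processing notes name Cell Ranger 6.0.1, Seurat and the build Sscrofa11.1 without roles. How nuclei were filtered beforehand was not given in the sources used. The shallowest nucleus had 501 UMIs. Symbols came from the table, and 773 of 14012 Ensembl identifiers received one from a table of gene names. Gene positions come from RefSeq's annotation of Sscrofa11.1.

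No column named a pig, so the table was 1 pooled sample and no p-value was computed. Counts were summed per group and divided by the group's UMIs, times 1000000 (CPM). Intervals at 95% are exact (Clopper-Pearson for shares, Poisson for levels, conditional binomial for ratios) and cover counting error only. For a ratio, a group with 0 counts of a gene was given 3. Genes needed 50 UMIs over both sides, and library values 10 nuclei per side, with 0.5 counts added for within-library ratios. Thinning drew 2000 UMIs per nucleus. No doublet caller was run and libraries were not integrated.

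Both the members and the gene lists were chosen with earlier results of these data known. The text names the marker genes, up to 4 called genes per list and direction, the 15 largest ratios each way among genes of at least 100 UMIs with 1 direction in all valued libraries (a selection of them is printed), the interleukin-31 and oncostatin M list, and 3 genes per comparison set and direction. Some genes that this rule names are not reported here. Other genes (SCN9A, SCN10A, TRPV1, TRPA1, TRPM8, RET, RUNX1, HRH4, IL4R, TRPC4, TAC1, NCMAP, GNAS and GFRA2) were chosen after their values were seen. Alternatives varied the selection limits, depth, libraries, normalization and comparison nuclei. The ratio and its interval were tested on simulated counts. Python 3.11.15, numpy 2.4.6, scipy 1.17.1 and pandas 2.3.3 were used.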

Additional observations from a re-analysis of the deposited data

How the results depend on the processing

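No paired analysis was possible because the pigs form 1 group and no column carries a pig's number. The share of nuclei selected was 7.17% with 5 or more IL31RA UMIs, 10.1% with the combined limit at 5 per 10000, 6.53% with it at 12 and 10.7% over nuclei of at least 2000 UMIs; without each library in turn it ran from 7.96 to 8.70%. Counts of genes higher and lower, 346 and 1314, ran from 328 to 411 and from 1073 to 1527 without each library in turn. They were 624 and 838 as means within libraries, and 218 and 724 among genes of at least 200 UMIs, where fewer genes were compared. The lower count was 643 of 10540 genes against the 3 C-fibre sets alone and 766 of 8444 after thinning, where fewer genes were compared than the 13206 behind the 1314. Without nuclei above 50000 UMIs the counts were 347 and 1117, of which 274 and 907 were the same genes. Without each library in turn, higher and lower counts ran from 491 to 725 and 527 to 697 against TRPM8-high nuclei, 446 to 554 and 516 to 685 against GFRA2/LPAR3-high, 467 to 739 and 391 to 552 against ADCYAP1/GAL-high, and 566 to 724 and 1139 to 1617 against the large-fibre set; these last alternatives were chosen after seeing the data. Of 147 named genes 145 kept their direction in every alternative. PVALB had a log2 ratio of 0.59 against the 3 C-fibre sets and NPY5R one of -0.11 after thinning; the cause was not tested. Leaving out 1 library or the deepest nuclei moved 45 named genes by over 1.5 times, 43 of them lower in the group, several at 10 or fewer UMIs there. Other alternatives moved more genes. In a separate count, 67 of the 147 moved against the 3 C-fibre sets alone and 69 after thinning. By the same count 31 moved without library 6 and 21 without nuclei above 50000 UMIs. Depth limits low genes: 0 UMIs allow up to 1.24 CPM in the group, and no value here measures variation among pigs.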
